A study of Homo sapiens with 12 samples.

Results

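RBE is an established human cholangiocarcinoma (bile duct cancer) cell line, and the comparison described here is that of RBE cells kept in AG-120 with RBE cells kept in vehicle, both without Nutlin. It rests on 6 of the 12 libraries of the study, 3 from AG-120 cells (group AG120) and 3 from vehicle cells (group vehicle). Libraries were assigned to groups by their labels alone, and the comparison was chosen with earlier results of these data known. AG120 cells had 22 days of 5 µM AG-120 and vehicle cells 22 days of DMSO, and both then had DMSO in place of Nutlin. The other 6 libraries come from cells pretreated in the same way and followed by 72 hours of 5 µM Nutlin (groups vehicle_Nutlin and AG120_Nutlin). They share the estimate of the spread between libraries and are compared only where the AG-120 effect with Nutlin is set beside the one without. All groups are cultures of 1 line, the labels do not say whether replicates are separate cultures, and the p-values therefore measure a spread between libraries that may be technical. The study asked how 2-hydroxyglutarate (2-HG) alters gene expression under p53. Since 2-HG itself was not among the values used here, what is compared is the drug with its vehicle.

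Mutant IDH1 turns 2-oxoglutarate into 2-HG, which inhibits enzymes that use 2-oxoglutarate, among them histone and DNA demethylases and prolyl hydroxylases. AG-120 (ivosidenib) inhibits the mutant enzyme and so lowers 2-HG. In bile duct cancers with mutant IDH, 2-HG is known for holding cells away from a hepatocyte fate, and loss of 2-HG for reviving interferon-stimulated genes in tumour cells. These statements are background and not results of the counts below.

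The labels name bile duct as the tissue, and several markers of that epithelium were abundant. Levels are CPM, counts relative to the library total and scaled by the trimmed mean of M values. KRT7 lay at 1496 to 1961 CPM over the 6 libraries, KRT19 at 1378 to 2205, EPCAM at 47.3 to 61.6 and SOX9 at 78.4 to 96.7. Of 27 biliary markers, 7 stayed under 1 CPM in all 6 libraries, among them CFTR and TFF3. Of 33 hepatocyte markers, 21 did so, as did 12 of 14 leukocyte, 8 of 11 endothelial and 6 of 13 fibroblast markers. Library totals ran from 17239172 to 27499433 counts. AG120 replicate 1 stood apart from the other 5 libraries: on the first principal component (41.7% of the variance) it lay at -49.3, against -5.05 to 20.0 for the rest. The second component, with 18.2%, placed AG120 replicates 2 and 3 at -23.8 and -19.5 and the vehicle libraries at 9.44 to 13.6, with AG120 replicate 1 at 9.36 beside them. AG120 replicate 1 also had relatively more counts on long transcripts, with a correlation across genes (Spearman) of 0.385 between its deviation from the other 2 libraries of its group and transcript length, against -0.224 and -0.369 for AG120 replicates 2 and 3 and -0.058 to 0.095 for vehicle. Values without that library stand beside results below that it moved.

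**Figure D1:**
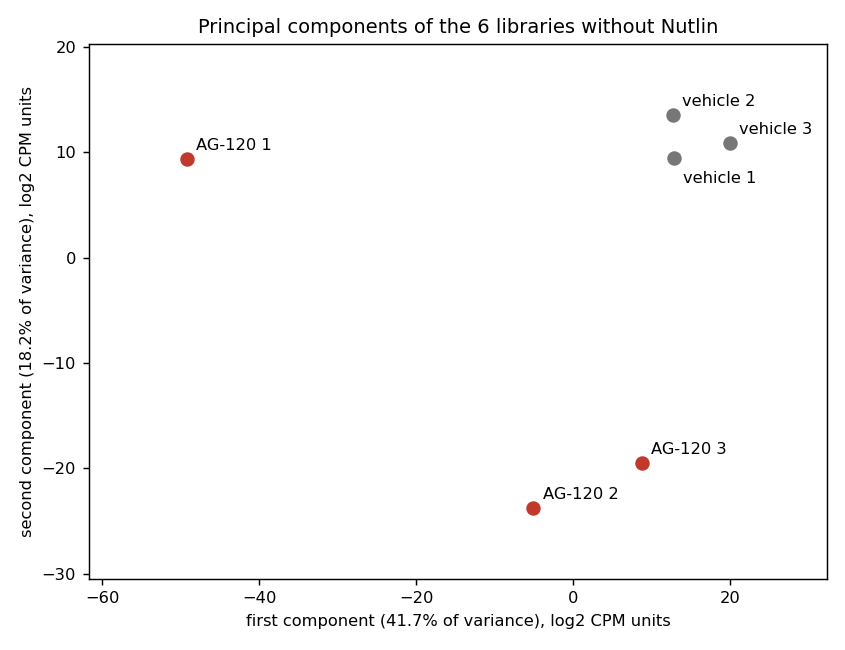
Principal components of log2 CPM in the 6 libraries without Nutlin, each point a library with its group and replicate number. AG-120 replicate 1 sits alone at -49.3 on the first axis, and AG-120 replicates 2 and 3 lie at -23.8 and -19.5 on the second, below all 3 vehicle libraries.

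In the fit of edgeR's quasi-likelihood model to all 12 libraries, 8 of 15691 tested genes (0.051%) were higher in AG-120 cells at an adjusted p of at most 0.05, the threshold for a call throughout. The count of lower genes was 0 (0.0%) in edgeR. At an unadjusted p of at most 0.05 there were 757 higher genes (4.82%) and 497 lower genes (3.17%), and DESeq2 on the same counts called 74 higher and 16 lower. The 8 genes were MUC5AC, HABP2, BAAT, KCNJ16, ABCA12, C3, NPC1L1 and TRIM22. By known role they are a secreted mucin, a pair of secreted plasma proteins (HABP2 and C3), an enzyme and a transporter of bile acid and sterol handling (BAAT and NPC1L1), a lipid transporter, a potassium channel subunit and an interferon-inducible gene.

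MUC5AC, the gel-forming mucin that stomach and airway cells secrete, had the largest change of the 8. Its gene entry lies at chr11:1151580-1222364 (hg19). It stood at 10.7, 8.0 and 6.38 CPM in AG120 replicates 1, 2 and 3, the order in which values are given from here on, and at 0.501, 0.792 and 0.516 CPM in vehicle. All 3 AG-120 libraries lay far above every vehicle library. The fitted log2 fold change was 3.81 (SE 0.32, edgeR adjusted p = 0.0005528), and MUC5AC was called in all 16 alternative analyses. In counts, the vehicle libraries held 10, 14 and 15 reads on MUC5AC and the AG-120 libraries 249, 163 and 121. Its longest transcript is 17448 bases, at the 99.6 percentile of the tested genes, and its log2 fold change was 3.63 once the length trend was removed and 3.59 without AG120 replicate 1.

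BAAT (chr9:104122699-104145801, hg19) joins bile acids to glycine or taurine, the last step of making bile salts. It measured 16.5, 14.5 and 14.7 CPM with AG-120 and 5.46, 4.92 and 4.40 CPM with vehicle. The groups were far apart beside the spread within each. The log2 fold change was 1.63 (SE 0.19, edgeR adjusted p = 0.006641).

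NPC1L1 (chr7:44552134-44580914, hg19) is the sterol transporter that takes up cholesterol from bile and gut lumen. Its level was 15.2, 11.2 and 13.8 CPM with AG-120 and 5.41, 5.15 and 3.30 CPM with vehicle, with no overlap and with vehicle replicate 3 the lowest of the 6. The log2 fold change was 1.55 (SE 0.22, edgeR adjusted p = 0.0245). The call was lost without AG120 replicate 1 (adjusted p = 0.0951), without AG120 replicate 3 (0.1139) and without any 1 of the vehicle libraries (0.1036 to 0.1712), always with the same sign.

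HABP2 (chr10:115310596-115349361, hg19), a plasma serine protease that binds hyaluronan, was at 31.9, 29.4 and 29.1 CPM with AG-120 and 15.8, 16.9 and 15.3 CPM with vehicle. Libraries within each group differed little beside the gap between groups. The log2 fold change was 0.92 (SE 0.10, edgeR adjusted p = 0.004419). C3 (chr19:6677715-6730573, hg19), the central protein of the complement cascade, was the most abundant of the 8 genes, at 333, 258 and 252 CPM against 156, 165 and 153 CPM. AG120 replicate 1 was the highest, and the other AG-120 libraries still exceeded every vehicle library. C3 changed by 0.83 (log2, SE 0.11, edgeR adjusted p = 0.01925), and by 0.69 without AG120 replicate 1.

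KCNJ16 (chr17:68049570-68131749, hg19) encodes a subunit of inward rectifier potassium channels in transporting epithelia. Its level was 12.7, 13.4 and 12.7 CPM with AG-120 and 6.97, 6.17 and 5.78 CPM with vehicle. The 3 AG-120 values fell within 1 CPM of each other. The log2 fold change was 1.04 (SE 0.13, edgeR adjusted p = 0.01177). ABCA12 (chr2:215796266-216003151, hg19), a lipid transporter known from skin, was at 22.2, 16.8 and 14.0 CPM against 8.02, 8.54 and 7.98 CPM, a log2 fold change of 1.11 (SE 0.14, edgeR adjusted p = 0.01323). Here AG120 replicate 1 was again the highest library, and without it the change was 0.91. The ABCA12 transcript is long, 9100 bases and at the 94.2 percentile, and its change was 1.00 with the length trend removed. TRIM22 (chr11:5710919-5758319, hg19), an interferon-inducible ubiquitin ligase, was at 6.21, 5.10 and 6.06 CPM against 3.11, 3.05 and 3.34 CPM. Its log2 fold change of 0.87 (SE 0.13) had the weakest call of the 8 (edgeR adjusted p = 0.03477), which 8 of the 16 alternatives kept.

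Several of the calls were lost when a library was left out. Leaving out AG120 replicate 1 kept 6 of the 8 calls, and leaving out AG120 replicate 3 kept 6. Without vehicle replicate 1, 2 or 3 there remained 4, 2 and 1 of them, the last being MUC5AC. No alternative turned the direction of any of the 8 genes.

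**Figure D2:**
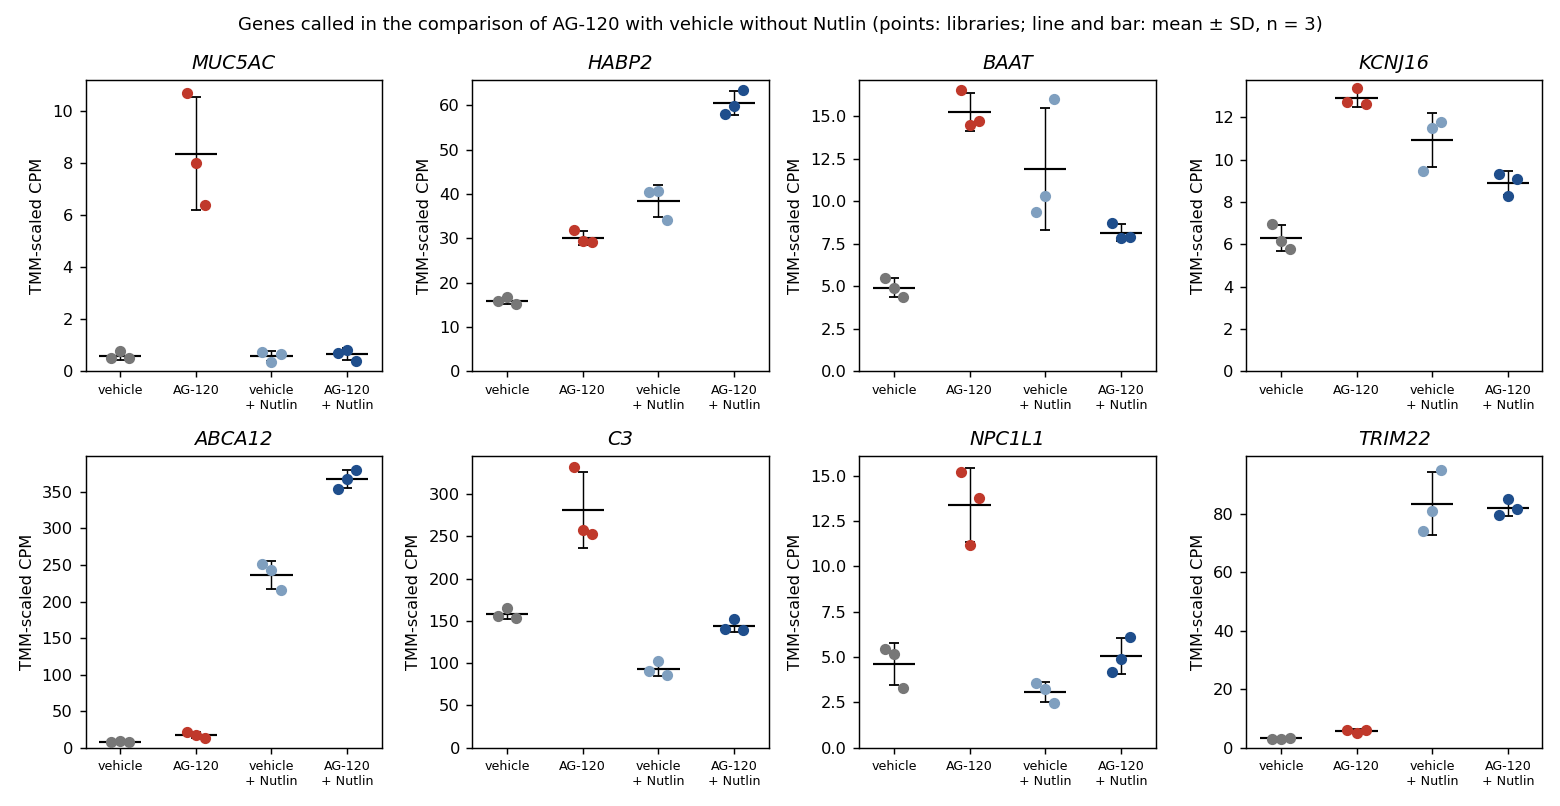
TMM-scaled CPM (vertical axes, from 0) of the 8 genes called without Nutlin, in all 4 groups, with points for libraries and the line and bar for the mean ± SD (n = 3). In each panel the 3 AG-120 points lie above the 3 vehicle points. With Nutlin the MUC5AC groups sit together under 1 CPM, and BAAT and KCNJ16 lie lower with AG-120, neither of them called.

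The rank of genes just past the threshold was continuous with the 8. TRIM22 was the last gene called, and the next ones, ABCC2 and PADI3 (higher) and ALDH1A3 and IGFBP4 (lower), shared an adjusted p of 0.05392. A threshold set just above that value would add genes of both directions.

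Among genes that were not called, 9 higher and 10 lower ones with the smallest unadjusted p, at least 5 CPM and no overlap between the libraries are described next, as values. Over all genes tested, 1795 (11.4%) had all 3 AG-120 libraries above all 3 vehicle libraries and 1619 (10.3%) had all 3 below. ABCC2, the pump that exports bilirubin and bile acid conjugates across the canalicular membrane, was at 209, 183 and 189.5 CPM with AG-120 and 134, 129.5 and 143 CPM with vehicle (log2 difference 0.52, SE 0.08). CDH16, a cadherin of kidney and other tubular epithelia, was at 78.5, 81.9 and 88.0 CPM against 59.7, 54.9 and 49.5 CPM, a log2 difference of 0.60. Neither of these genes overlapped between groups, by the rule that named them. The other genes on the higher side were PADI3 (a peptidylarginine deiminase, 0.81), OLFML3 (a secreted olfactomedin protein, 0.84), ANXA13 (an annexin of epithelial cells, 0.82), HIST1H2AC (a histone gene, 0.73), USH1C (a scaffold of brush border membranes, 0.59), SLFN5 (an interferon-inducible Schlafen gene, 0.53) and DUSP4 (a phosphatase of MAP kinases, 0.53). Their adjusted p ran from 0.05392 to 0.1129 in edgeR.

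On the lower side, ALDH1A3, an enzyme that makes retinoic acid, was at 33.1, 46.8 and 56.0 CPM with AG-120 and 83.4, 86.6 and 83.1 CPM with vehicle (log2 difference -0.90, SE 0.14). AG120 replicate 1 was the lowest library. Without AG120 replicate 1 the difference was -0.72 and passed the threshold (edgeR adjusted p = 0.02645), as it did without AG120 replicate 3. IGFBP4, a secreted binder of insulin-like growth factors, measured 314, 281 and 269 CPM against 443, 449 and 448 CPM, a log2 difference of -0.63 (SE 0.10). The 3 vehicle libraries of IGFBP4 lay within 7 CPM of each other. CALB2 (calretinin, a calcium-binding protein) was at 19.3 ± 1.69 CPM against 35.6 ± 0.965 (mean ± SD, n = 3) and DCLK1 (a microtubule-associated kinase known as a tuft cell marker) at 4.09 ± 0.343 against 9.83 ± 1.09. In log2 these were differences of -0.88 and -1.27. PDGFRA, a receptor for platelet-derived growth factor, differed by -0.99. The remaining 5 were EMP1 (an epithelial membrane protein, -0.59), MEIS3 (a homeobox factor, -0.55), CLU (clusterin, an extracellular chaperone, -0.51), CASK (a membrane scaffold, -0.45) and FST (follistatin, which binds activin, -0.60). Adjusted p over these 10 genes ran from 0.05392 to 0.1868 in edgeR.

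How many genes were called depended on how the uneven libraries were treated. Voom with sample weights gave AG120 replicate 1 a weight of 0.202, against 2.917 and 1.221 for AG120 replicates 2 and 3, and gave vehicle_Nutlin replicates 2 and 3, which enter the shared estimate of the spread, 0.473 and 0.068. With these weights 601 genes (3.83%) were called higher and 318 (2.03%) lower. An edgeR fit without these 3 libraries called 608 genes (3.67%) higher and 300 (1.81%) lower. Both analyses shared 486 higher and 211 lower genes, which is 75.8% of the calls with weights and 76.8% of those without the 3 libraries, and both held all 8 genes above. All 9 higher and all 10 lower genes of the preceding paragraphs were called with the weights. These genes, like the 8 above, were chosen from the same libraries, so such overlap is no independent support for them. Nor are both analyses independent of each other, since the weights were low for the same 3 libraries that the other fit left out. Without those 3, vehicle_Nutlin holds 1 library. Leaving out AG120 replicate 1 alone, with the Nutlin libraries in the fit, gave 7 higher and 1 lower. The median over genes of the SD within a group was 0.1834 (log2) in AG120, 0.1018 in vehicle, 0.29 in vehicle_Nutlin and 0.0924 in AG120_Nutlin. What set these libraries apart was not tested. They are called below the weighted analysis and the analysis without 3 libraries.

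**Figure D3:**
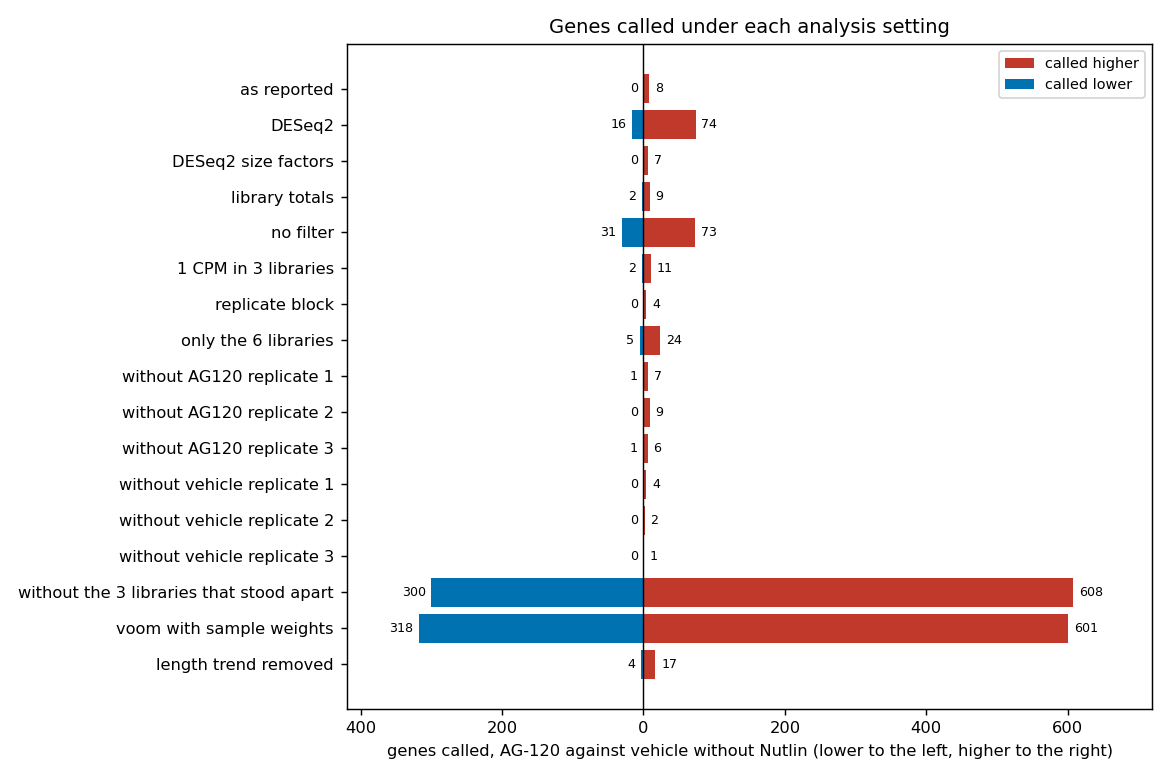
Number of genes called higher (to the right) and lower (to the left) in AG-120 cells without Nutlin under each analysis setting, with the number at each bar. Sample weights gave 601 and 318 and leaving out the 3 libraries that stood apart 608 and 300, while under the other settings the higher counts ran from 1 to 74 and the lower ones from 0 to 31.

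Cell cycle genes measured lower with AG-120 in nearly every member, each by a small amount. Of 58 G1/S genes, which serve the start of DNA replication, 57 had a negative log2 fold change, and in 35 all AG-120 libraries lay below all vehicle libraries (60.3%, against 10.3% of all genes). The median log2 fold change was -0.22, against 0.00 over all genes. This list and those below were chosen with earlier results of these data known. Their shares beside those of all genes are descriptions and no independent support. Of 15 housekeeping genes, 9 had a negative log2 fold change, 6 lay lower without overlap (40.0%) and 1 higher (6.67%), with a median of -0.10. None of the 58 was called in edgeR, 12 had an unadjusted p of at most 0.05, and 20 were called lower in the weighted analysis and 25 in the analysis without 3 libraries, with 0 higher in either. Per library the median over these genes, relative to the vehicle mean, was -0.21, -0.20 and -0.26 in AG-120 and between -0.01 and 0.02 in vehicle, so that AG120 replicate 1 did not stand apart here. In bulk libraries, fewer cells in a phase and less RNA per cell cannot be told apart.

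GINS4, a subunit of the replicative helicase, was at 39.6, 39.5 and 36.2 CPM with AG-120 and 48.5, 53.1 and 54.2 CPM with vehicle (log2 -0.43, SE 0.13). CHAF1B, which loads histones behind the fork, was at 36.8 ± 4.91 CPM against 48.8 ± 1.23 (mean ± SD, n = 3; log2 -0.40). RFC3, part of the clamp loader, differed by -0.34 and SLBP, the histone stem-loop binder, by -0.38. The libraries of these 4 genes did not overlap between groups. Their edgeR adjusted p ran from 0.3514 to 0.4468, and all 4 were called lower in the weighted analysis (adjusted p 0.002672 to 0.0431).

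G2/M genes, which serve spindle, kinetochore and cytokinesis, showed the same picture. Of 74 tested, 66 had a negative log2 fold change, 44 had no overlap and lay lower (59.5%), 0 had no overlap and lay higher, and the median was -0.20. The count called in edgeR was 0, with 14 at an unadjusted p of at most 0.05 on the lower side. The weighted analysis called 22 lower and the analysis without 3 libraries 25, with 0 higher. Library medians were -0.15, -0.16 and -0.24 with AG-120 and -0.01 to 0.01 with vehicle. SPC24, a kinetochore subunit, stood at 30.3, 28.4 and 30.5 CPM against 37.5, 42.4 and 44.5 CPM (log2 -0.48, SE 0.14). ECT2, which directs the contractile ring, stood at 137, 155 and 146 CPM against 171, 179 and 170.5 CPM (log2 -0.25, SE 0.08). TACC3 of the spindle differed by -0.26 and the kinesin KIF20A by -0.28. Each of the 4 was lower in all 3 AG-120 libraries than in any vehicle library, with edgeR adjusted p from 0.3533 to 0.4726.

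Promoters of cell cycle genes carry known short elements, and those of RFC3 and ECT2 are printed because they show them. Sequences are from RefSeq (GRCh38.p14), 250 bases before the start site to 50 after, 5′ to 3′ on the strand of the gene, with matches in capitals. In RFC3 (chr13:33817899-33818198, plus strand) the capitals mark TTTCCCGC, a site form of the E2F factors, read on the minus strand. In ECT2 (chr3:172750476-172750775, plus strand, the first of its start sites) they mark TTTGAA, the core of the cell cycle homology region.
RFC3: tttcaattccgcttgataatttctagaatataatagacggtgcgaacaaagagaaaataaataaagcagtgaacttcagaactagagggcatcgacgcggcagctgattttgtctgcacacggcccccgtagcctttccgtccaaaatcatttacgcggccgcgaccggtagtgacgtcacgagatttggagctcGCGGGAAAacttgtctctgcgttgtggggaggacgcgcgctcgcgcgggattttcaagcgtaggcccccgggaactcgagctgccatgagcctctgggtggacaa
ECT2: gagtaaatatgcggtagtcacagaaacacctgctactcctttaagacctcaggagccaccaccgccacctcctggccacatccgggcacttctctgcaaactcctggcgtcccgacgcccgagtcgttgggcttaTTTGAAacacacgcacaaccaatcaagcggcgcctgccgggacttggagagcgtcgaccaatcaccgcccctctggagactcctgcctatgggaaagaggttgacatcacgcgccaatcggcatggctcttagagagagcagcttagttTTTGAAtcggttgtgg
A gene was counted if any of its promoter entries held a match on either strand. TTTCCCGC was found in 1.98% of 27305 genes with an entry and in 11 of 48 G1/S genes with an entry (22.9%). TTTGGCGC was in 0.795% and in 12 of 48 (25.0%). TTTGAA was found in 18.2% of all genes with an entry and in 45 of 62 G2/M genes (72.6%). Among the other cell cycle genes named above, CHAF1B and SLBP held neither TTTCCCGC nor TTTGGCGC in the window, and SPC24, TACC3 and KIF20A held no TTTGAA. A match describes the letters in the window only.

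Type I interferon genes, the antiviral programme that cells switch on after sensing nucleic acids or interferon, mostly measured higher. Of 39 tested, 32 had a positive log2 fold change (50.0% of all genes did), 18 lay higher without overlap (46.2%, against 11.4% of all genes), 0 lay lower without overlap, and the median was 0.21. TRIM22 was the 1 member called in edgeR. The weighted analysis called 11 higher and the analysis without 3 libraries 7, with 0 lower. Library medians were 0.24, 0.25 and 0.17 with AG-120 and -0.02 to 0.00 with vehicle, so the groups did not overlap.

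IFIH1, the sensor of long double-stranded RNA, stood at 6.51, 5.89 and 5.64 CPM with AG-120 and 4.21, 4.19 and 4.23 CPM with vehicle (log2 0.52, SE 0.16, edgeR adjusted p = 0.3959). The 3 vehicle values differed by less than 0.1 CPM, and every AG-120 value was higher. SAMD9, an antiviral factor, was at 13.1 ± 2.82 CPM against 8.59 ± 0.924 (mean ± SD, n = 3; log2 0.61), and its paralogue SAMD9L at 1.07, 0.589 and 0.580 CPM against 0.150, 0.170 and 0.103 CPM. Counts of SAMD9L were low, 3, 3 and 3 reads in vehicle, and its log2 fold change of 2.41 had an SE of 0.74 (edgeR adjusted p = 0.3846). SAMD9L passed the expression filter only through the AG-120 libraries, where it is high. Its place among the higher members without overlap is therefore no support for the list.

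The IFIH1 promoter (chr2:162318635-162318934, GRCh38.p14, minus strand) is shown for its matches to GAAA, any 2 bases and GAAA again, the core of the interferon-stimulated response element. The capitals mark 3 matches, a pair that overlap each other on the opposite strand and another on the strand of the gene.
IFIH1: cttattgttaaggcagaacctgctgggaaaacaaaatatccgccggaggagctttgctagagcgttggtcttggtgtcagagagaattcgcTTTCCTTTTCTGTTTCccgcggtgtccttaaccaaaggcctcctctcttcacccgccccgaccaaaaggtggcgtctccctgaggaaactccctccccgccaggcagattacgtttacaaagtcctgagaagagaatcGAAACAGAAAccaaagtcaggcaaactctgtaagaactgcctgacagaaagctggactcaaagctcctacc
These letters were found, on either strand, in 4.38% of 27305 genes with a promoter entry. They were in 26 of 36 interferon genes with an entry (72.2%) and in 9 of 20 antigen presentation genes (45.0%).

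Antigen presentation genes, which cut, carry and display peptides, had a positive log2 fold change in 21 of 24 cases, with a median of 0.25. In 10 of them all AG-120 libraries lay above vehicle (41.7%), and in 1 all lay below. For this list and those below, the shares without overlap over all genes were 11.4% higher and 10.3% lower. The weighted analysis called 3.83% of all genes higher and 2.03% lower. None was called in edgeR, and 6 had an unadjusted p of at most 0.05, all higher. The weighted analysis called 10 higher and the analysis without 3 libraries 9, with 0 lower. CD74, the invariant chain of class II molecules, was at 27.4, 37.6 and 36.2 CPM against 26.5, 25.4 and 23.4 CPM (log2 0.43, SE 0.14), with AG120 replicate 1 close to vehicle. PSMB8 and PSMB9, subunits of the immunoproteasome, were at 49.6 ± 5.17 and 18.8 ± 0.378 CPM with AG-120 and 37.7 ± 1.38 and 13.8 ± 1.43 with vehicle (mean ± SD, n = 3), log2 differences of 0.39 and 0.44. HLA-E, a class I gene whose reads may be shared with its close relatives, differed by 0.32. No library of these 4 genes crossed between the groups, and their edgeR adjusted p ran from 0.4452 to 0.5172. Leukocyte markers, the cells in which CD74 is most abundant, summed to 5.36 to 8.16 CPM in AG-120 and 6.49 to 8.24 in vehicle, and 7 of the 14 were at 0 in all 6 libraries (summed levels of marker lists are CPM without the scaling).

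Genes of cholesterol synthesis and uptake had a positive log2 fold change in 25 of 26 cases, with a median of 0.21. In 14 (53.8%) the AG-120 libraries lay above vehicle without overlap, and in 0 below. NPC1L1 was the 1 call in edgeR, with 9 at an unadjusted p of at most 0.05. The weighted analysis called 14 higher and the analysis without 3 libraries 15, with 0 lower. Library medians were 0.14, 0.23 and 0.29 with AG-120 and 0.08, 0.04 and -0.09 with vehicle. TM7SF2, a sterol reductase, was at 98.5, 83.4 and 84.7 CPM against 63.3, 59.1 and 48.7 CPM (log2 0.64, SE 0.13). SQLE, the squalene epoxidase, was at 353, 332 and 333 CPM against 289, 276 and 257 CPM (log2 0.31), and MVD, which makes isopentenyl diphosphate, at 143, 147 and 169.6 CPM against 129, 122 and 116 CPM (log2 0.33). Vehicle replicate 3 was the lowest library of each, and their edgeR adjusted p ran from 0.1404 to 0.2947.

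Promoters of MVD (chr16:88663042-88663341, minus strand) and of the called gene NPC1L1 (chr7:44541281-44541580, minus strand), both from GRCh38.p14, are shown for CCAAT, the box bound by NF-Y, a partner of the sterol regulatory factors.
MVD: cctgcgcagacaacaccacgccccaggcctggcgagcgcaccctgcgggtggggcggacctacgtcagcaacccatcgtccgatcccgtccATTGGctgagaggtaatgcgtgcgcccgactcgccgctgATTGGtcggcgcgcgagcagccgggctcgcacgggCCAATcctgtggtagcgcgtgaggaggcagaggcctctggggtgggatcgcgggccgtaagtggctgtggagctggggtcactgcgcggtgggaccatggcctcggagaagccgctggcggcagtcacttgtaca
NPC1L1: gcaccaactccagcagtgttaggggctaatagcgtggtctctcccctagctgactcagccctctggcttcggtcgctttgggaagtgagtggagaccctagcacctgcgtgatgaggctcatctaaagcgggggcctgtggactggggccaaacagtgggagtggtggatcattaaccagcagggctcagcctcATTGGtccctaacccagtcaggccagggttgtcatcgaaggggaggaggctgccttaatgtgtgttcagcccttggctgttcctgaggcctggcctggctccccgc
The capitals mark CCAAT on either strand, 3 matches in MVD and 1 in NPC1L1. CCAAT was present in 39.7% of 27305 genes with a promoter entry and in 18 of 20 cholesterol genes with an entry (90.0%). The box is not particular to this list, being in 46 of 62 G2/M genes (74.2%), 32 of 48 G1/S genes (66.7%) and 14 of 20 antigen presentation genes (70.0%). The sterol element itself, searched as TCACNCCAC, was in 1 of the 20 (5.0%), against 1.39% of all genes with an entry.

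Fatty acid synthesis genes had a positive log2 fold change in 20 of 23 cases and a median of 0.17. Without overlap, 12 lay higher (52.2%) and 0 lower. The count called in edgeR was 0, with 7 higher at an unadjusted p of at most 0.05, and 7 were called higher in the weighted analysis and 7 in the analysis without 3 libraries. SCD, the desaturase that makes oleic acid, was at 1355, 1045 and 1052 CPM with AG-120 and 828, 819.6 and 730.1 CPM with vehicle. All AG-120 libraries of SCD exceeded vehicle, AG120 replicate 1 by the most (log2 0.54, SE 0.12, edgeR adjusted p = 0.1524). ELOVL6, which lengthens palmitate, was at 69.8, 61.1 and 56.6 CPM against 43.2, 46.1 and 39.0 CPM (log2 0.55). ACSS2, which makes acetyl-CoA from acetate, differed by 0.43, and ACSL4, which activates long fatty acids, by 0.39, which was 0.24 without AG120 replicate 1.

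Bile acid and sterol handling genes were split. Of 18 tested, 11 had a positive log2 fold change and 7 a negative one, 7 lay higher without overlap (38.9%) and 0 lower, and the median was 0.12, or 0.05 without vehicle replicate 3. BAAT and NPC1L1 were the calls in edgeR, 6 higher and 2 lower had an unadjusted p of at most 0.05, and the weighted analysis and the analysis without 3 libraries each called 5 higher and 0 lower. On the lower side, NR0B2, the small nuclear receptor that represses bile acid synthesis, was at 1.29, 2.94 and 2.48 CPM with AG-120 and 4.46, 4.70 and 2.85 CPM with vehicle, groups that overlapped at vehicle replicate 3 (log2 -0.84, SE 0.30, edgeR adjusted p = 0.5054, and -0.55 without AG120 replicate 1).

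Mucin genes were equally mixed outside MUC5AC. Of 12 tested, 7 had a positive log2 fold change, 4 lay higher without overlap (33.3%) and 0 lower, and the median was 0.23. AGR2, the disulfide isomerase that folds mucins, was at 1.24, 1.13 and 1.11 CPM against 0.501, 0.170 and 0.413 CPM (log2 1.64, SE 0.54, edgeR adjusted p = 0.4262). AGR2 passed the expression filter only through the AG-120 libraries, so its place among the higher members is no support for the list. GCNT3, which branches mucin sugars, was at 35.9 ± 1.51 CPM against 30.7 ± 0.876 (mean ± SD, n = 3; log2 0.23). MUC12, a membrane mucin, was under 1 CPM in all 6 libraries (log2 -1.58, SE 0.61, and -2.59 without AG120 replicate 3). None of these 3 was called in edgeR. The weighted analysis called 2 of the 12 higher and the analysis without 3 libraries 1, with 0 lower.

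**Figure D4:**
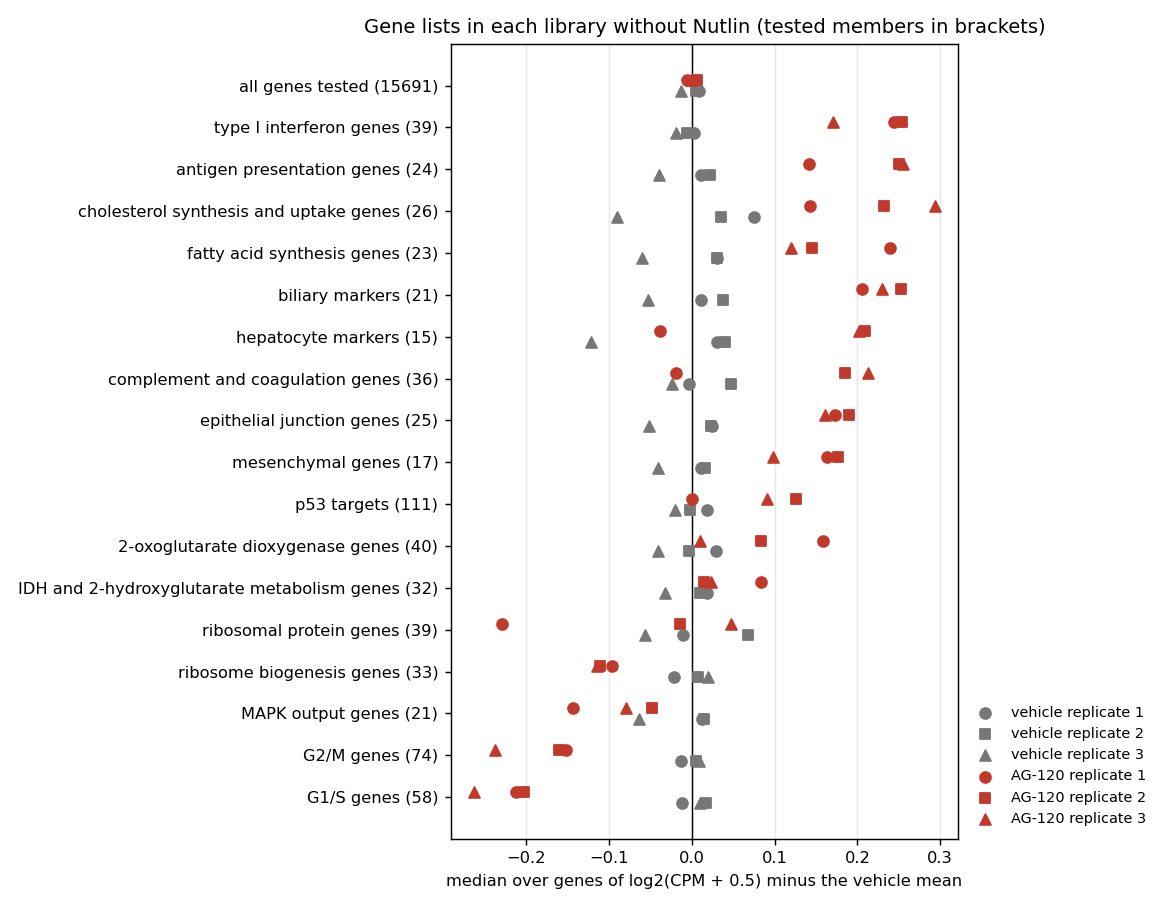
Median over the tested genes of each list of log2(CPM + 0.5) minus the vehicle mean, per library, with grey for vehicle, red for AG-120 and the symbol for the replicate. G1/S and G2/M medians lie at -0.15 to -0.26 in the 3 AG-120 libraries, while interferon medians lie at 0.17 to 0.25 and the medians of all genes between -0.0136 and 0.0083 over the 6 libraries.

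Biliary markers, the identity genes of the bile duct, had a positive log2 fold change in 17 of 21 cases, with a median of 0.22 (0.25 without AG120 replicate 1). Of these 21, 9 lay higher without overlap (42.9%, against 11.4% of all genes) and 2 lower (9.52%, against 10.3%). MUC5AC, held by this list too, was the 1 call in edgeR, and 9 were called higher in the weighted analysis and 9 in the analysis without 3 libraries. PKHD1, the fibrocystin of primary cilia, was at 57.4, 53.7 and 47.3 CPM against 35.6, 34.0 and 32.9 CPM (log2 0.63, SE 0.15). GGT1, the brush border gamma-glutamyl transferase, was at 146 ± 15.9 CPM against 109.9 ± 6.61 (mean ± SD, n = 3; log2 0.41). BICC1, an RNA-binding protein of tubular epithelia, was at 838, 487 and 443 CPM against 359, 356 and 317 CPM. Here AG120 replicate 1 lay far above the other AG-120 libraries, which still exceeded vehicle, and the log2 difference was 0.78 with it and 0.44 without it. The edgeR adjusted p of these 3 genes ran from 0.2385 to 0.2557. The members that lay lower without overlap were SOX9, a factor of duct cells, at 78.4, 85.4 and 82.6 CPM against 96.7, 94.2 and 87.0 CPM (log2 -0.17), and the water channel AQP1, at 11.7 to 12.2 CPM against 13.9 to 14.5 CPM without the scaling, which was picked out after its values were seen.

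Hepatocyte markers that could be tested numbered 15 of 33, of which 10 had a positive log2 fold change. Without overlap 4 lay higher (26.7%, against 11.4% of all genes) and 1 lower (6.67%, against 10.3%). Their median was 0.22, or 0.07 without vehicle replicate 3, and 0.39 without vehicle replicate 2. Library medians were -0.04, 0.21 and 0.20 with AG-120 and -0.12 to 0.04 with vehicle, so that AG120 replicate 1 lay within the vehicle range. None was called in edgeR, where 3 had an unadjusted p of at most 0.05, all higher, and the weighted analysis and the analysis without 3 libraries each called 2 higher and 0 lower. HNF4A, a factor of the hepatocyte programme, was at 27.3, 15.6 and 18.2 CPM against 13.7, 12.2 and 14.5 CPM (log2 0.60). HNF4A was high in AG120 replicate 1, and without that library its log2 difference was 0.32. SERPINA1, the secreted antitrypsin, was at 158 ± 7.89 CPM against 122 ± 7.11 (mean ± SD, n = 3; log2 0.38), and FGB, the fibrinogen beta chain, at 3.64, 2.94 and 3.64 CPM against 1.65, 2.89 and 1.62 CPM. The edgeR adjusted p of these 3 genes ran from 0.3048 to 0.6715. The other 5 members had a negative log2 fold change. The 1 that lay lower without overlap was PCK1, an enzyme of glucose synthesis, at 0.659 to 0.894 CPM against 1.10 to 1.53 CPM without the scaling, picked out after its values were seen. ALB, APOA1 and the other defining liver genes are among the 33 markers, of which 7 had no count in any of the 6 libraries, and the summed level of all 33 was 317 to 336 CPM in AG-120 and 263 to 287 CPM in vehicle.

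Transcription factors of the liver and bile duct lineage had 15 of 23 positive and a median of 0.04, which turned to -0.01 with library totals in place of TMM and was 0.09 without AG120 replicate 3. None was called in edgeR, where 3 had an unadjusted p of at most 0.05, all higher, and the weighted analysis called 3 higher and the analysis without 3 libraries 4. SOX4 was at 478 ± 60.3 CPM against 372 ± 27.7 (mean ± SD, n = 3; log2 0.36) and HNF4G at 11.2 ± 0.812 against 13.3 ± 0.477 (log2 -0.25).

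Complement and coagulation genes had 23 of 36 positive, 12 higher without overlap (33.3%) and 2 lower (5.56%), and a median of 0.22. HABP2 and C3 were called in edgeR, the weighted analysis called 10 higher and 1 lower, and the analysis without 3 libraries 9 and 1. C5, which complement cleaves after C3, was at 87.5, 69.1 and 68.6 CPM with AG-120 and 51.3, 49.7 and 40.3 CPM with vehicle (log2 0.67, SE 0.16, edgeR adjusted p = 0.2557). All 3 AG-120 libraries of C5 exceeded vehicle, as those of C3 did. Library medians of the list were -0.02, 0.19 and 0.21 with AG-120 and -0.02 to 0.05 with vehicle, so that AG120 replicate 1 lay within the vehicle range.

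Epithelial junction genes had 18 of 25 positive, 10 higher without overlap (40.0%) and 0 lower, and a median of 0.18 (0.12 without vehicle replicate 3). CDH1, the epithelial cadherin, was at 140.3, 137 and 134 CPM against 111, 117 and 99.0 CPM (log2 0.33, SE 0.10), and EPCAM at 55.6, 61.3 and 61.6 CPM against 47.3, 48.2 and 48.9 CPM (log2 0.30, SE 0.09). MARVELD2 (tricellulin) differed by 0.41 and F11R, a junctional adhesion molecule, by 0.26. The edgeR adjusted p of these 4 genes ran from 0.3639 to 0.5054, so none was called. Of all 25 genes, 6 had an unadjusted p of at most 0.05 and 5 were called in the weighted analysis and 5 in the analysis without 3 libraries, all higher.

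Mesenchymal genes had 12 of 17 positive, with a median of 0.18 (0.14 without AG120 replicate 1 and 0.12 without AG120 replicate 2). Without overlap 5 lay higher (29.4%, against 11.4% of all genes) and 2 lower (11.8%, against 10.3%). SNAI2, a repressor of epithelial genes, was at 4.80, 4.66 and 6.01 CPM against 3.31, 2.66 and 3.09 CPM (log2 0.77), and SPARC, a matrix glycoprotein, at 8.37 ± 0.878 CPM against 5.07 ± 0.224 (mean ± SD, n = 3; log2 0.72). WNT5A differed by 0.81, while S100A4 was at 8.96, 14.8 and 16.3 CPM against 20.5, 20.5 and 19.7 CPM (log2 -0.60). Without AG120 replicate 1 the differences were 0.51 for WNT5A and -0.38 for S100A4. None of the 17 was called in edgeR, where 3 higher and 1 lower had an unadjusted p of at most 0.05, the weighted analysis called 6 higher and 1 lower, and the analysis without 3 libraries 6 and 0. Of 13 fibroblast markers 7 were tested, with a median of -0.02, which ran from -0.06 to 0.01 as single libraries were left out (-0.06 without AG120 replicate 1). Among them PDGFRA lay lower in every AG-120 library (above), and PDGFRB (0.51) and FBLN1 (0.25) lay higher in every one, while ACTA2 overlapped (0.31, and 0.46 without AG120 replicate 1). The summed level of the fibroblast list was 599 to 624 CPM in AG-120 and 561 to 619 CPM in vehicle, and 4 of the 13 were at 0 in all 6 libraries.

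Targets of p53 lay higher without overlap more often than lower, with a small median. Of 111 tested, 73 had a positive log2 fold change, 34 lay higher without overlap (30.6%, against 11.4% of all genes) and 9 lower (8.11%, against 10.3%). The median was 0.07, and 0.13 without AG120 replicate 1 and 0.01 without AG120 replicate 2. ABCA12 and TRIM22, both held by this list, were the 2 calls in edgeR, the weighted analysis called 20 higher and 1 lower, and the analysis without 3 libraries 26 and 0. RRM2B, the ribonucleotide reductase subunit of resting cells, was at 126, 134 and 128 CPM against 95.3, 95.2 and 87.2 CPM (log2 0.48, SE 0.11, edgeR adjusted p = 0.2163). SLC12A4, a potassium-chloride cotransporter, was at 57.8 ± 2.13 CPM against 44.2 ± 0.233 (mean ± SD, n = 3; log2 0.39). CDKN1A, the inhibitor of cyclin-dependent kinases that p53 induces, was at 380.1, 469 and 489 CPM against 395, 374 and 371 CPM, where AG120 replicate 1 fell among the vehicle libraries (log2 0.23, SE 0.12, edgeR adjusted p = 0.662). In the analysis without 3 libraries its difference was 0.34 (adjusted p = 0.0001197). MDM2, the ubiquitin ligase that degrades p53, was at 194, 148 and 148 CPM against 142, 154 and 142 CPM, high in AG120 replicate 1 and otherwise overlapping (log2 0.16, edgeR adjusted p = 0.8474, and 0.02 without that library).

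The target of the drug and its metabolic neighbours held no call in edgeR. IDH1 was at 185, 199.7 and 202 CPM with AG-120 and 173, 173 and 168 CPM with vehicle (log2 0.19, SE 0.11, edgeR adjusted p = 0.6953). The groups did not overlap, and in the analysis without 3 libraries the difference was 0.23 (adjusted p = 0.003513). IDH2 was at 224, 211 and 216 CPM against 207, 196 and 184 CPM (log2 0.15). These are levels of the transcripts from all alleles, and the drug acts on the enzyme, so they are no check of its action. Genes of IDH and 2-HG metabolism had 16 of 32 positive and a median of 0.00 (-0.05 with library totals), with 8 higher without overlap (25.0%) and 1 lower. The weighted analysis and the analysis without 3 libraries each called 5 higher and 1 lower, and edgeR had 3 higher at an unadjusted p of at most 0.05. BCAT1, the branched-chain aminotransferase, was at 73.1, 54.6 and 55.1 CPM against 43.5, 43.2 and 46.0 CPM (log2 0.46). ACO1, the cytosolic aconitase, differed by 0.34 and PGD, an enzyme of the pentose phosphate pathway, by 0.27. Their edgeR adjusted p ran from 0.2947 to 0.6326.

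Genes of 2-oxoglutarate dioxygenases, the enzymes that 2-HG inhibits, had 22 of 40 positive and a median of 0.06, or 0.02 without AG120 replicate 1. Without overlap 7 lay higher (17.5%, against 11.4% of all genes) and 3 lower (7.5%, against 10.3%). P4HTM, a transmembrane prolyl hydroxylase, was at 30.9, 31.2 and 31.2 CPM against 27.5, 26.0 and 25.1 CPM (log2 0.24). KDM5B, a histone demethylase, was at 161, 117 and 109 CPM against 109, 103 and 98.2 CPM, where AG120 replicate 1 made most of the gap (log2 0.32, and 0.13 without it). HIF1AN, the asparagine hydroxylase of hypoxia-inducible factor, differed by 0.19, or 0.10 without AG120 replicate 1. EGLN2 differed by -0.87 (-0.57 without vehicle replicate 3) at about 1 CPM, a count made uncertain by a read-through gene that overlaps it. None of the 40 was called in edgeR, where 3 higher and 1 lower had an unadjusted p of at most 0.05, and the weighted analysis and the analysis without 3 libraries each called 1 higher.

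NRF2 targets had 15 of 28 positive and a median of 0.06, which ran from 0.02 to 0.14 as single libraries were left out. Without overlap 8 lay higher (28.6%, against 11.4% of all genes) and 5 lower (17.9%, against 10.3%). The detoxifying reductases AKR1C3 and AKR1B10 were at 50.1, 57.9 and 57.9 and 93.2, 84.1 and 80.6 CPM with AG-120 and at 35.4, 35.6 and 32.6 and 61.3, 60.8 and 55.2 CPM with vehicle. Both lay higher in every AG-120 library (log2 0.68 and 0.54, edgeR adjusted p = 0.1524 and 0.2271). AKR1C3 has close relatives among which reads may be shared. None of the 28 was called in edgeR, where 6 higher and 1 lower had an unadjusted p of at most 0.05, and the weighted analysis called 7 higher and 1 lower and the analysis without 3 libraries 7 and 0.

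MAPK output genes had 15 of 21 negative and a median of -0.14, which was -0.05 without AG120 replicate 1. Without overlap 5 lay lower (23.8%) and 1, DUSP4, higher. DUSP5 was at 47.0, 63.4 and 55.7 CPM against 72.9, 78.0 and 70.4 CPM (log2 -0.41), ETV4 at 35.6 ± 4.05 against 43.9 ± 1.96 (mean ± SD, n = 3; log2 -0.30) and SPRY4 at 50.1, 48.7 and 49.1 against 61.3, 60.2 and 63.7 (log2 -0.32). DUSP4 and DUSP5, both phosphatases that the pathway induces, thus lay on opposite sides. None of the 21 was called in edgeR, where 1 higher and 4 lower had an unadjusted p of at most 0.05, and the weighted analysis and the analysis without 3 libraries each called 1 higher and 4 lower.

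Ribosome biogenesis genes had 26 of 33 negative and a median of -0.08 (-0.11 without AG120 replicate 1). Without overlap 10 lay lower (30.3%) and 0 higher, and the library medians were -0.10, -0.11 and -0.12 with AG-120 and -0.02 to 0.02 with vehicle. The housekeeping genes had a median of -0.10 (-0.06 without AG120 replicate 1) and 40.0% lower without overlap. A small drop was therefore not particular to ribosome biogenesis genes. NOP56, a core protein of box C/D particles, was at 130.3, 145 and 145 CPM against 165, 158 and 179 CPM (log2 -0.26, SE 0.08). LYAR differed by -0.51, GNL3 (nucleostemin) by -0.27 and DKC1 (dyskerin) by -0.22. The edgeR adjusted p of these 4 ran from 0.3959 to 0.492. Over the list 5 had an unadjusted p of at most 0.05, all lower, and the weighted analysis called 2 of the 33 lower and the analysis without 3 libraries 4.

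RNAs that poly(A) selection should mostly leave behind were uneven between libraries, and some were higher in part of the AG-120 group. Of 5 tested, 4 had a positive log2 fold change and 1, RN7SL2, a negative one, and none was called in edgeR, where 1 had an unadjusted p of at most 0.05, nor in the weighted analysis or the analysis without 3 libraries. RN7SK, a small nuclear RNA, was at 68.0, 19.4 and 1.11 CPM with AG-120 and 1.00, 1.19 and 3.54 CPM with vehicle. RMRP was at 23.6, 8.39 and 0 CPM against 0, 0.0566 and 1.17 CPM and RPPH1 at 19.9, 24.6 and 0.264 CPM against 0, 0 and 0.928 CPM. These 3 were high in AG120 replicates 1 and 2 and at vehicle levels in replicate 3, and the groups overlapped. RN7SL1, of the signal recognition particle, was at 35.7 ± 8.81 CPM against 31.1 ± 10.2 (mean ± SD, n = 3; log2 0.20), and its direction turned when AG120 replicate 2 or vehicle replicate 1 was left out. Replication-dependent histone genes, whose main transcripts also lack a tail, had a positive log2 fold change in all 17 tested, with a median of 0.83, which was 0.55 without AG120 replicate 1, and 9 lay higher without overlap (52.9%). HIST1H4H was at 1.76, 1.67 and 1.37 CPM against 0.602, 0.679 and 0.585 CPM (log2 1.37), HIST1H2AE at 2.01, 0.834 and 0.896 against 0.351, 0.509 and 0.344 (log2 1.66) and HIST1H2BD at 9.94, 6.87 and 5.85 against 3.61, 4.64 and 5.09 (log2 0.76). Histone genes are near-identical copies, so reads may be split among them. None of the 17 was called in edgeR, where 11 had an unadjusted p of at most 0.05, and 4 were called higher in the weighted analysis and 4 in the analysis without 3 libraries. The part of tail-less RNA in these values was not tested. The median of the G1/S genes above lay on the other side of 0, and why these lists differ was not tested.

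Mitochondrially encoded genes had 12 of 13 positive and a median of 0.30 (0.45 without vehicle replicate 3), with library medians of 0.45, 0.29 and 0.22 with AG-120 and -0.02, -0.24 and 0.25 with vehicle, which overlap. MT-CO3 was at 1818, 1632 and 1476 CPM against 1331, 1234 and 1444 CPM (log2 0.30), MT-CYB differed by 0.54 with an SE of 0.34 (0.31 without AG120 replicate 1), MT-ND2 by 0.30 (0.18 without vehicle replicate 2) and MT-ATP8, which overlaps its neighbour, by 0.88. None of the 13 was called in edgeR, where 1 had an unadjusted p of at most 0.05, and the weighted analysis and the analysis without 3 libraries each called 3 higher.

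With Nutlin, AG-120 was compared with vehicle in 6 libraries that the comparison above does not use. There 371 genes (2.36%) were called, 68 higher (0.433%) and 303 lower (1.93%). Of the 68 higher genes, 56 (82.4%) had a positive log2 fold change without Nutlin, and of the 303 lower genes, 196 (64.7%) had a negative one. Over all 15691 genes, 7839 were positive and 7817 negative without Nutlin, and 7739 positive and 7934 negative with it. How many of all genes kept their sign was not counted. Of the 8 genes called without Nutlin, 5 had the same sign with Nutlin and 3 were called there. HABP2 changed by 0.65 with Nutlin, ABCA12 by 0.64 and C3 by 0.64 (log2, edgeR adjusted p = 0.005052, 0.02849 and 0.01393), and the differences between both effects were not called (adjusted p = 0.5152, 0.3943 and 0.6829). NPC1L1 differed by 0.72 with Nutlin (SE 0.24, adjusted p = 0.1267), and this difference from 1.55 was not called either (adjusted p = 0.3626).

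The test of the difference between the effects, with Nutlin minus without, called 57 genes (0.363%), 5 higher (0.0319%) and 52 lower (0.331%). Of the 8 genes 4 were among them, which were chosen by 1 side of this same difference, so the test favours them. MUC5AC was at 0.723, 0.838 and 0.412 CPM in AG120_Nutlin and 0.741, 0.359 and 0.684 CPM in vehicle_Nutlin. In the presence of Nutlin MUC5AC was under 1 CPM in all 6 libraries (log2 0.13, SE 0.39, and -3.67 for the difference, edgeR adjusted p = 0.007072). BAAT was at 8.74, 7.84 and 7.88 CPM against 9.37, 10.3 and 16.0 CPM, lower with AG-120 in every library. Its change with Nutlin was not called (log2 -0.55, SE 0.19, edgeR adjusted p = 0.1352), and vehicle_Nutlin replicate 3 lay far above the rest. The difference between the effects was -2.18 (edgeR adjusted p = 0.003208). KCNJ16 was at 9.34, 8.28 and 9.11 CPM against 9.48, 11.5 and 11.8 CPM. Its change with Nutlin was not called either (log2 -0.30, edgeR adjusted p = 0.2355). The difference between the effects was -1.33 (edgeR adjusted p = 0.006896). TRIM22 was at 82.0 ± 2.80 CPM against 83.5 ± 10.7 CPM (mean ± SD, n = 3), far above its level without Nutlin in both arms (log2 -0.03, and -0.89 for the difference, edgeR adjusted p = 0.0446). ABCA12, like TRIM22, was in another range with Nutlin, at 368 ± 12.8 CPM against 236 ± 18.7.

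Of the genes just past the threshold, 6 of the 9 higher and 6 of the 10 lower ones kept their sign with Nutlin. These counts are small and stand beside the near even split of signs over all genes given above. ALDH1A3 differed by -0.95, PDGFRA by -1.35, CALB2 by -1.53 and MEIS3 by -1.51 there, all 4 called lower with Nutlin, and ABCC2 (0.41) and ANXA13 (0.64) were called higher. IGFBP4, PADI3 and MEIS3 were the 3 among them whose difference between effects was called.

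**Figure D5:**
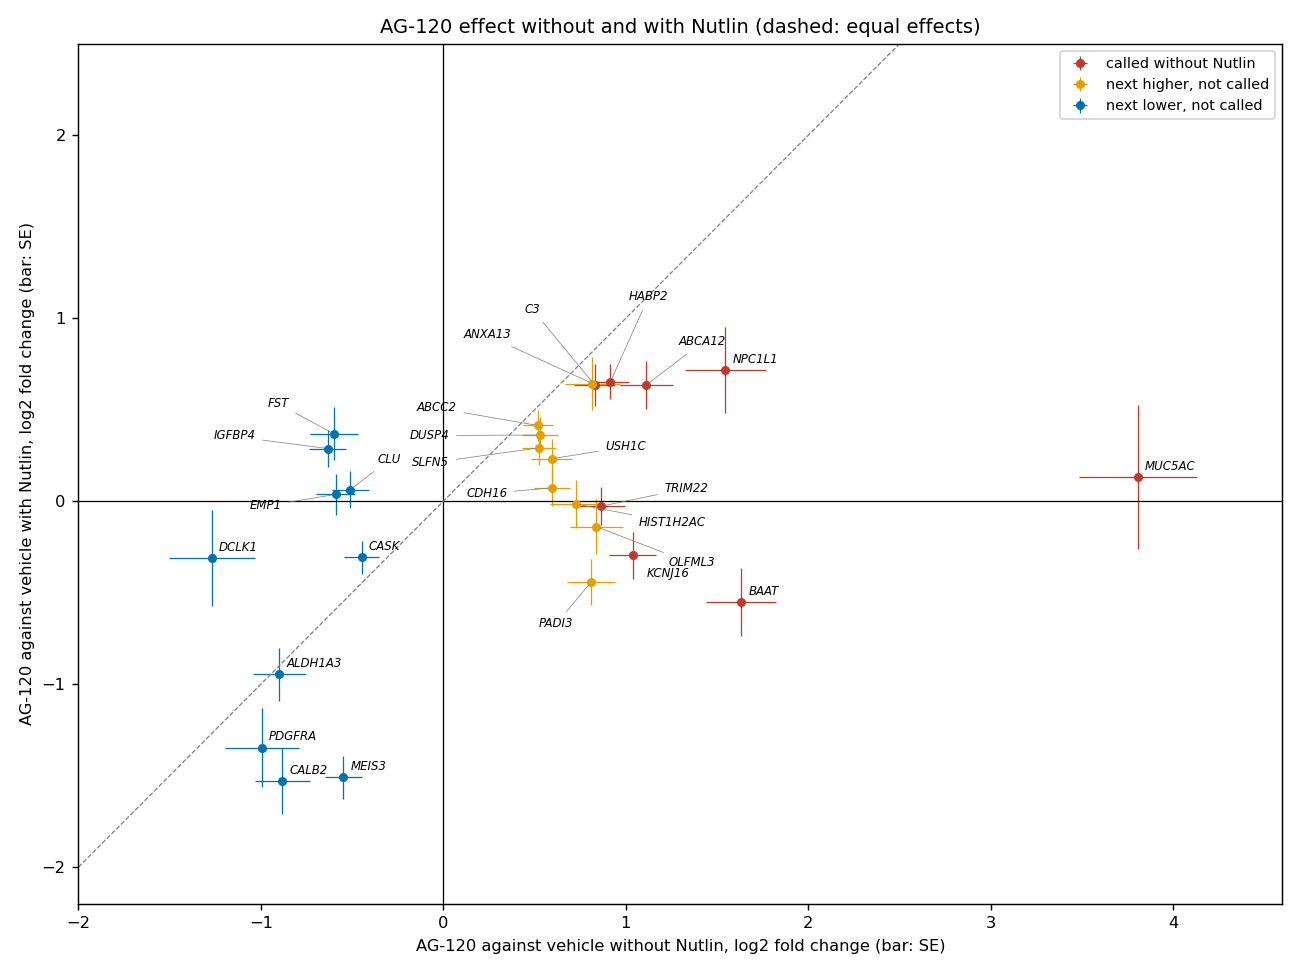
Log2 fold change of AG-120 against vehicle without Nutlin (horizontal) and with Nutlin (vertical) for the 8 called genes and the next 9 higher and 10 lower ones described above, with bars for the SE and a dashed line where both are equal. MUC5AC lies at 3.81 and 0.13, HABP2, ABCA12, C3 and NPC1L1 lie right of the dashed line and above 0, and BAAT and KCNJ16 lie below 0 on the vertical axis.

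The gene groups set side by side differed between both comparisons as values. The G1/S median was -0.22 without and -0.17 with Nutlin, and the G2/M median -0.20 and -0.34. The interferon median was 0.21 without and -0.11 with Nutlin, that of antigen presentation 0.25 and -0.09, and that of cholesterol genes 0.21 and -0.07. Ribosomal protein genes stood at -0.07 (0.00 without AG120 replicate 1) and -0.57, and NRF2 targets at 0.06 and 0.25. The differences between these medians were not tested, and vehicle_Nutlin replicates 2 and 3 stood apart in the comparison with Nutlin.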

How the data were processed

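The authors deposited 1 table of unnormalized read counts by gene symbol for 12 libraries. Their processing notes name Partek, STAR, HTSeq, DESeq2 and hg19, without versions or roles. Libraries were poly(A) selected and sequenced as paired reads of 150 bases, per the labels. The table had 55773 entries, 29603 with a count, and 28 symbols turned into dates, which were tested and not named. Positions are hg19 from that table, and promoter sequences are RefSeq GRCh38.p14 (5 of the 8 called genes had an entry).

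The counts were tested with edgeR 4.0.16 in R 4.3.3 (filterByExpr on the 4 groups, TMM, 1 quasi-likelihood fit of all 12 libraries, Benjamini-Hochberg adjustment over 15691 genes). Library totals of 17239172 to 27499433 counts set the precision. Alternatives used limma 3.58.1 (voom with sample weights), DESeq2 1.42.0, other scalings and filters, a block, left-out libraries, and a per-library loess fit (span 0.5) on the longest transcript, known for 86.1% of genes. Code was tested on simulated data.

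Text genes are every call, the 10 with the smallest p in each direction among uncalled genes of at least 5 CPM without overlap, up to 4 members of each of 24 lists, IDH1, IDH2, MDM2, CDKN1A and cell markers, and a few genes that this rule names are not reported here. List medians per library use a pseudocount of 0.5. Lists were described, not tested. The comparison and the lists were chosen with earlier results of these data known.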

Additional observations from a re-analysis of the deposited data

Results flagged for a closer look

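The AG-120 effects without and with Nutlin differed, by the interaction term of the edgeR fit, at 11 of the genes named in the text, given here as with minus without Nutlin in log2. Of the genes called without Nutlin these were MUC5AC (-3.67, adjusted p = 0.007072), BAAT (-2.18, adjusted p = 0.003208), KCNJ16 (-1.33, adjusted p = 0.006896) and TRIM22 (-0.89, adjusted p = 0.0446). Of the genes just past the threshold they were PADI3 (-1.25, adjusted p = 0.009237), IGFBP4 (0.92, adjusted p = 0.01657) and MEIS3 (-0.96, adjusted p = 0.01897). MEIS3 had the same sign in both comparisons, with -0.55 without and -1.51 with Nutlin, and IGFBP4 had opposite signs, with -0.63 and 0.29.

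Of the list members and markers they were BCAT1 (-1.68, adjusted p = 0.001798), PDGFRB (-1.23, adjusted p = 0.03057), FBLN1 (-0.85, adjusted p = 0.01907) and the keratin KRT7 (-1.18, adjusted p = 0.006473). BCAT1 was at 73.1, 54.6 and 55.1 CPM in AG120 and 43.5, 43.2 and 46.0 CPM in vehicle, and at 7.35, 6.02 and 6.17 CPM in AG120_Nutlin and 14.0, 16.1 and 15.4 CPM in vehicle_Nutlin, so its groups did not overlap in either comparison and stood in opposite order. KRT7 differed by 0.19 without Nutlin (0.08 without AG120 replicate 1), which was not called (adjusted p = 0.7151), and by -0.99 with it (adjusted p = 0.0008987). The genes were picked in part for their effect without Nutlin, which enters this difference.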

How the results depend on the processing

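Of 16 alternatives, calls without Nutlin moved from 8 in all (8 higher, 0 lower) to 90 (74 and 16) with DESeq2, 104 (73 and 31) without a filter, 29 (24 and 5) with only the 6 libraries, 21 (17 and 4) with the length trend removed, 13 (11 and 2) at 1 CPM in 3 libraries, 919 (601 and 318) with voom weights and 908 (608 and 300) without the 3 libraries that stood apart; library totals gave 11 (9 and 2) and DESeq2 size factors 7 (7 and 0). Leaving out 1 library gave 1 to 9 calls in all, 1 to 9 higher and 0 to 1 lower. Lone-group fits assume that a group of fewer libraries varies like the others, since without the 3 libraries vehicle_Nutlin holds 1. The causes were not tested.

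The replicate number as a block gave 4 calls (4 higher, 0 lower), 211 with Nutlin and 32 for the difference between the effects. Same-numbered AG120 and vehicle libraries deviated together with correlations of 0.039, -0.034 and 0.091, so the numbers do not pair them by this measure.

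With Nutlin the 371 calls became 837 with DESeq2, 1272 without a filter, 1374 without the 3 libraries, 979 with voom weights and 197 to 569 as single libraries were left out. For the difference, 57 became 200, 283, 637, 433 and 23 to 65 in the same order, and 95 with the length trend removed. Of 1739 single-gene results, 1476 stayed on the same side of the threshold, 234 passed it newly (146 of them with voom weights or without the 3 libraries, over 77 of 109 genes), 27 lost it and 2 turned sign: RN7SL1 was -0.0198 without AG120 replicate 2 and -0.0266 without vehicle replicate 1, against 0.4419 without vehicle replicate 2 and 0.4642 with voom weights. List medians moved by more than the spread between libraries in 62 of 384 cases.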
